A study of Homo sapiens with 105 samples.

Results

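Interferon-stimulated genes are the genes that cells switch on when an interferon binds its receptor, and 43 of them were listed by name for this report. Of these, 42 had at least 1 probeset of the Affymetrix U133 Plus 2.0 array that the platform annotation assigns to that gene alone (STAT2 is not analysed here). In all, 77 probesets named a listed gene alone, and the brightest one of each gene, by its mean over the arrays, stood for the gene among the 54613 probesets tested. DDX58 is annotated under its newer name RIGI, and its probeset is of the type that can also bind transcripts of other genes.

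The cells were Vk2/E6E7, a single line of vaginal epithelial cells immortalized with the papillomavirus genes E6 and E7, so cells of the immune system and of the deeper tissue are not part of the model. Each culture was exposed for 6 h to growth medium alone (GM, marked no treatment in the plots, 53 arrays used of 54) or to medium with 1 compound. The pro-inflammatory compounds (PICs) were TNF-α at 40 ng/ml (5 arrays used of 6), the lipopeptides Pam3CSK4 at 10 μg/ml (6 arrays) and MALP2 at 200 ng/ml (6 arrays), imiquimod (6 arrays) and the detergent nonoxynol-9 (N-9) at 12.5 μg/ml (9 arrays). The non-inflammatory compounds (NICs) were the gels hydroxyethyl cellulose (HEC) and carboxymethyl cellulose (CMC), each at 1 mg/ml with 9 arrays. The labels give imiquimod as 30 mg/ml, whereas the methods of the study give the same number in μg/ml, so its dose is not settled. Pam3CSK4 and MALP2 are ligands of TLR2 with different partner receptors, and imiquimod is a small-molecule ligand of TLR7.

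All values are log2 signals after quantile normalization, and a difference of 1 on this scale is a 2-fold difference. GM replicate 52, whose values correlated with those of no other array above r = 0.0484 (all other pairs of arrays r = 0.835 or more), and TNF-α replicate 6, which equals the mean of TNF-α replicates 1 to 3 to within 7.7e-09, were left out. The labels call the arrays biological replicates without saying which cultures they came from, so a p-value reflects how far these arrays scatter, part of which may be technical. Replicates with neighbouring numbers were alike, in sets of 3 that are called runs here (18 runs of GM, 2 of each of TNF-α, Pam3CSK4, MALP2 and imiquimod, and 3 of each of N-9, HEC and CMC). The runs come from the numbering alone and are not named in the labels.

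Type I interferons (IFN-α, IFN-β, and in epithelial cells also IFN-κ and IFN-ε) and type III interferons (IFN-λ) signal through the kinases JAK1 and TYK2. They act through a complex of STAT proteins with IRF9, which binds a short DNA element, the interferon-stimulated response element (ISRE), near the start of its target genes. The products of these genes detect viral RNA, degrade it, block its translation, hold virus particles at the cell surface or regulate the pathway itself. Some of the genes are also reached by IFN-γ, by IRF1 or by NFκB without an interferon.

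The promoters of the listed genes are shown because the ISRE is what most of them share, whereas their expression in these cells differed in the ways described further on. RefSeq promoter windows of 300 bases (250 before to 50 after the start, build GRCh38.p14) matched 35 of the 43 genes. OAS2, OASL, MX2, IFIT2, DHX58, IRF7, USP18 and TRIM22 had no entry. The ISRE was searched on both strands as GAAA, any 2 bases and GAAA again, and 23 of the 35 genes (65.7%) had at least 1 match in a window, against 4.38% of all 27305 genes in the table. The gamma-activated site TTCNNNGAA was found for 11 of the 35 (31.4%, against 9.38% of all genes), and in 5 of them (BST2, EPSTI1, IFI27, IFITM1 and MX1) it overlapped an ISRE match. The NFκB element, searched as GGGA, any 2 bases and TTCC, was found for DDX58, IFIH1 and OAS3 (8.57%, against 1.97%). A match describes letters in a window and is no evidence of binding.

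The stretches around the ISRE match nearest the start are given for 6 genes, all upstream of the start and read along the gene's own strand, with the letters of the match in capitals. SAMD9, GBP1 and ISG20 were those with a window among the genes that stood above every GM run in both runs of MALP2, IFI44L and IFIT1 were among those that varied most between untreated runs, and BST2 had the largest fall with N-9. In GBP1 and IFIT1 the element lies on the opposite strand, so that the boxes read TTTC.
SAMD9 (chr7:93118081-93118140, minus strand): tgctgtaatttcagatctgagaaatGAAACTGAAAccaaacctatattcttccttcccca
GBP1 (chr1:89065301-89065360, minus strand): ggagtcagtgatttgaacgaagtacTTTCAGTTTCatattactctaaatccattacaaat
ISG20 (chr15:88638922-88638981, plus strand): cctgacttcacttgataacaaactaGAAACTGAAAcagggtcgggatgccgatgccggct
IFI44L (chr1:78620350-78620409, plus strand): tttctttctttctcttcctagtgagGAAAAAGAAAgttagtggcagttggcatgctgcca
IFIT1 (chr10:89392482-89392554, plus strand): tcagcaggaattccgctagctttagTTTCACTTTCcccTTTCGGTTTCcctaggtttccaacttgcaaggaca
BST2 (chr19:17405720-17405785, minus strand): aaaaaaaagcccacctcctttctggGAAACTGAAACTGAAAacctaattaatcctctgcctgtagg
IFIT1 and BST2 each had 2 matches in the stretch, and those of BST2 overlapped. SAMD9, GBP1, ISG20 and BST2 held the same core of an ISRE (GAAACTGAAA, in GBP1 on the other strand). By their RefSeq positions, 17 of the 43 genes lay within 100 kb of another of them. They formed 7 groups, namely IFIT2, IFIT3, IFIT1 and IFIT5 on chromosome 10, OAS1, OAS3 and OAS2 on chromosome 12, CMPK2 with RSAD2, MX2 with MX1, IFI44L with IFI44, HERC6 with HERC5, and SAMD9 with SAMD9L.

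In untreated cells these genes rose and fell together, and by more than most genes did. The mean of the 42 genes on an array, each taken relative to its own GM mean, ran from -1.38 to 2.13 over the 53 GM arrays (SD 0.92). The mean of a GM run ran from -1.36 (replicates 43 to 45) to 1.57 (replicates 13 to 15). All 42 genes were above their GM mean in the runs of replicates 10 to 12, 13 to 15 and 16 to 18, and 1 of the 42 was in those of replicates 25 to 27 and 43 to 45. Over the 53 GM arrays the correlation of a pair of these genes had a median of 0.74 over 861 pairs (0.77 over the 18 run means), with a range from -0.28 to 0.98. The arrays share 1 cell line and 1 normalization, and arrays of a run were close to each other, so these points are not independent.

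**Figure D1:**
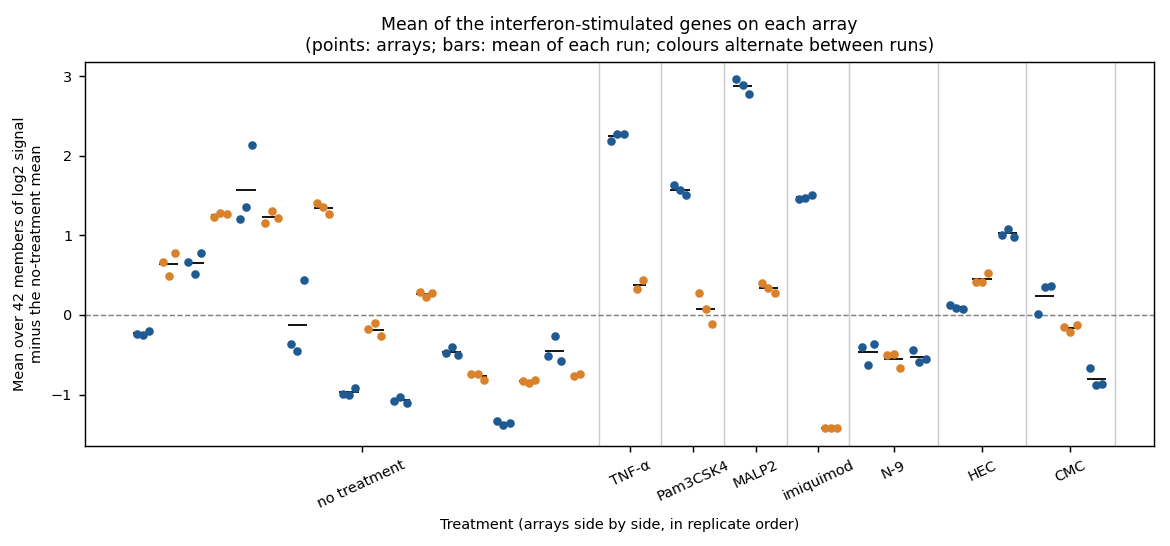
Mean over the 42 genes of the log2 signal minus the GM mean of each gene (vertical axis), for every array used, grouped by treatment, with each point an array, each bar the mean of a run and colours alternating between runs. The untreated runs spread from -1.36 to 1.57, the first runs of TNF-α and MALP2 lie above all of them at 2.24 and 2.87, and the runs of imiquimod lie on opposite sides of 0, at 1.48 and -1.42.

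The spread lay between runs rather than within them. The median over the 42 genes was an SD of 0.27 within GM runs and 0.91 between the means of GM runs, and 36 of the 42 genes had a range of over 2 between the lowest and the highest GM run. IFI44L had the widest range, from 2.53 to 11.52 between run means, and its SD over the GM arrays was at the 100th percentile of all probesets. MX1, a GTPase that traps viral nucleocapsids, ran from 7.04 to 12.64, and IFIT1, which binds viral RNA that lacks the cap marks of the host, from 8.61 to 13.78. IRF1, a transcription factor that also answers to IFN-γ and NFκB, had run means between 8.29 and 9.47. DHX58 (3.11 to 4.30) and RNF213 (7.07 to 8.44) were as narrow, and DHX58 is dim on this array.

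SAMD9, an inhibitor of poxviruses that lowers protein synthesis, went its own way. Its median correlation with the other 41 genes over GM arrays was 0.30, the lowest of the 42, against 0.74 for its neighbour SAMD9L and 0.86 for OAS1, the highest. BST2 (tetherin, which holds budding virus at the cell surface) followed with 0.38, then DHX58 with 0.40, RNF213 with 0.42 and IRF1 with 0.45. As a measure of RNA quality, the difference between the signals of 3′ and 5′ probesets of ACTB correlated with the mean of the 42 genes at r = 0.45 over the 18 GM run means, that of GAPDH at r = 0.04 and the median of the deposited values at r = 0.02. Their part in the spread was not tested.

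**Figure D2:**
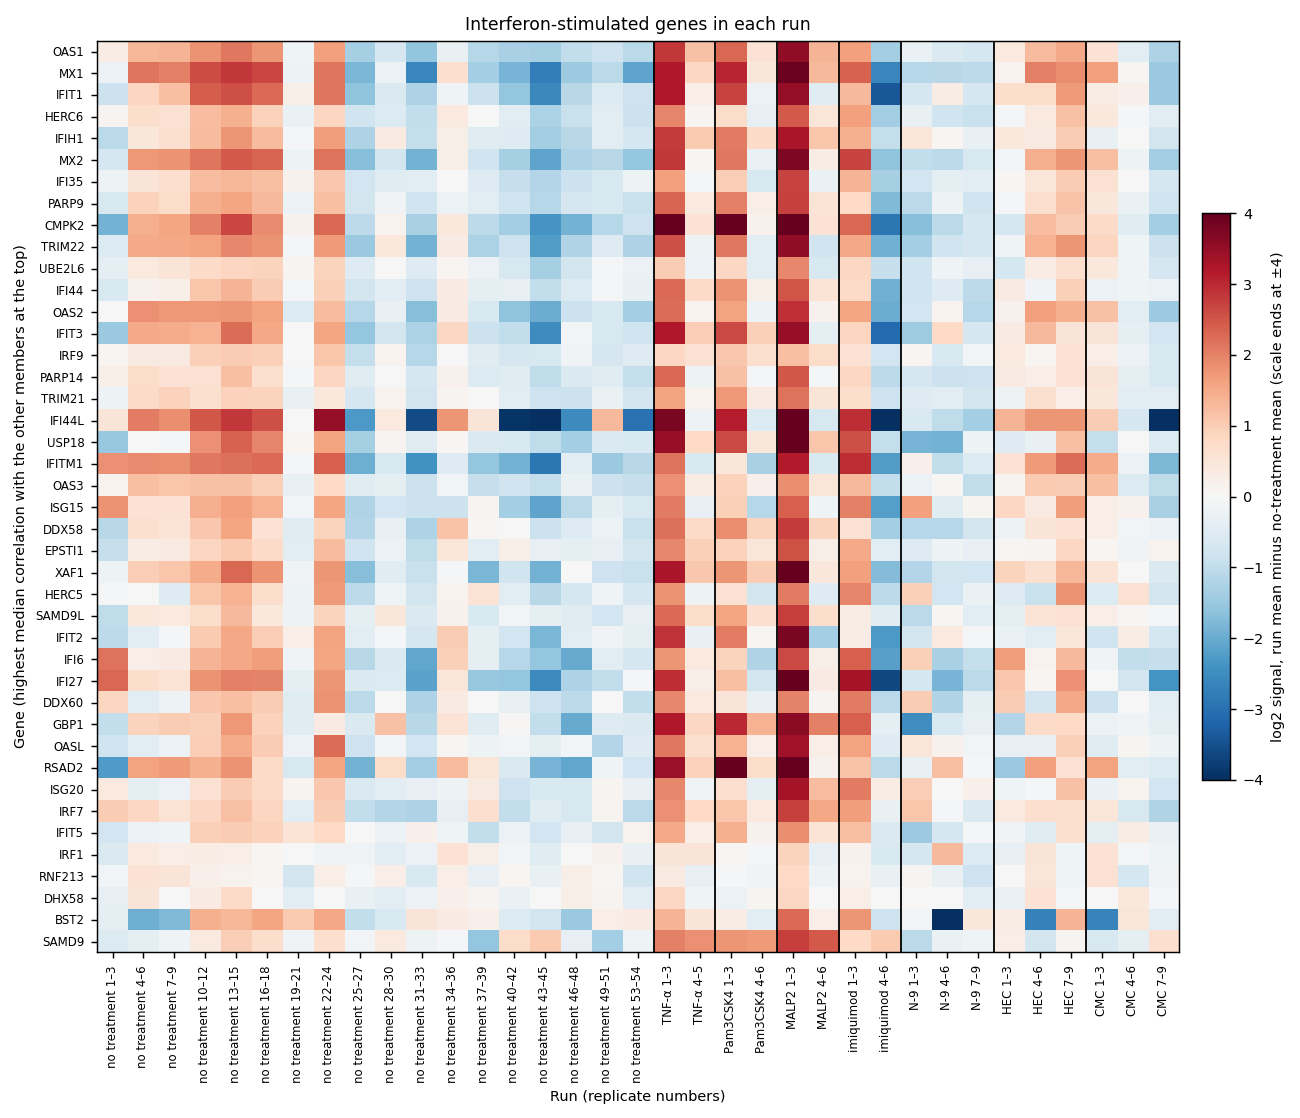
Log2 signal of each of the 42 genes (rows, ordered by their median correlation with the others over GM arrays) in every run (columns, by treatment and replicate numbers), as the run mean minus the GM mean, with red for higher and blue for lower and the colour scale ending at 4 in both directions. Most rows turn from blue to red together between untreated runs, while SAMD9, at the foot of the map, is red in both runs of TNF-α, Pam3CSK4, MALP2 and imiquimod.

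In the same fit limma called more of these genes higher with MALP2 than with any other compound. By limma (Benjamini-Hochberg adjusted p under 0.05 over all probesets), 26 of the 42 rose above GM and 0 fell below it, against 3.28% of all probesets that rose and 3.66% that fell. All 42 differences were positive, with a median of 1.53 on the log2 scale (-0.01 over all probesets) and a range from 0.28 for IRF1 to 2.81. The median with TNF-α was 1.49, and limma called 0 of the 42 between MALP2 and TNF-α. At an unadjusted limma p under 0.05 were 37 of the 42 with MALP2 and 36 with TNF-α (17.7% and 8.28% of all probesets). In bulk RNA of this kind, fewer cells of a type and less RNA per cell cannot be told apart. With the runs as a random block 20 of the 26 calls held (1.73% of all probesets), and IFI27, RSAD2, MX2, IFI35, PARP14 and OAS3 lost theirs. The block used 1 correlation of 0.438, taken over all probesets. Within runs the 42 genes were more alike than that (median SD 0.27 within GM runs, 0.91 between run means). P-values with the block can thus be too small for these genes. With 1 value per run 2 of the 26 calls held (0.306% of all probesets called higher). The calls rested largely on MALP2 replicates 1 to 3, in which the mean of the 42 genes was 2.87 above GM, against 0.34 in replicates 4 to 6. The calls fell to 4 without replicates 1 to 3 (2.04% of all probesets called higher) and rose to 39 without replicates 4 to 6 (2.00% of all probesets).

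Those 4 were SAMD9, GBP1, ISG20 and IRF7, and their MALP2 run means were also above all 18 GM runs in both runs, as were those of 1.53% of all probesets. SAMD9 had signals of 12.41, 12.70 and 13.17 (lowest, median and highest of 6 arrays) with MALP2 and of 8.40, 10.01 and 11.85 in GM. Each MALP2 array was above each GM array, which held for 0.331% of all probesets. The difference was 2.62 (SE 0.27, limma adjusted p = 3.27e-13), with 2.77 in the first run and 2.46 in the second.

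GBP1, a GTPase induced by IFN-γ that coats bacteria in the cytosol, had 11.66, 12.89 and 13.80 with MALP2 and 7.91, 10.03 and 12.99 in GM. The ranges overlapped, and the difference was 2.81 (SE 0.43, limma adjusted p = 7.54e-07), with 3.61 and 2.01 in the runs. ISG20, an RNA exonuclease, had 10.52, 11.71 and 12.88 against 8.52, 9.28 and 11.20 in GM. It was higher by 2.29 (SE 0.29, limma adjusted p = 3.06e-09), with 3.34 and 1.24 in the runs. IRF7, the factor that drives transcription of the type I interferon genes, had 10.55, 11.34 and 12.06 against 7.51, 9.14 and 10.93, a difference of 2.13 (SE 0.35, limma adjusted p = 2.77e-06) with 2.72 and 1.55 in the runs. With 1 value per run, SAMD9 (adjusted p = 0.00314) and ISG20 (adjusted p = 0.0390) were the 2 genes of the 42 that limma still called with MALP2 (0.306% of all probesets were called higher).

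**Figure D3:**
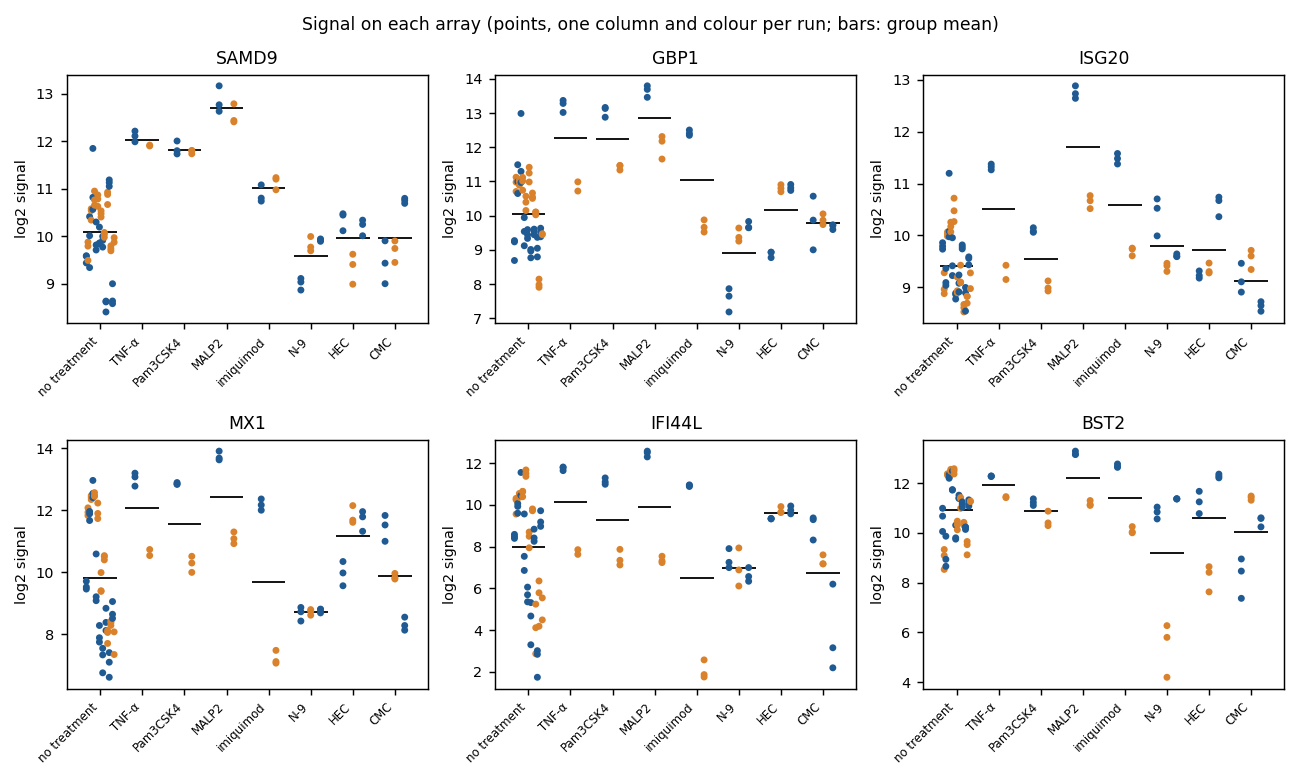
Log2 signal of SAMD9, GBP1, ISG20, MX1, IFI44L and BST2 on every array (points, with a column and an alternating colour for each run) by treatment, with bars at group means. SAMD9 shows the runs of TNF-α, Pam3CSK4 and MALP2 side by side at means of 12.03, 11.81 and 12.70, whereas MX1 and IFI44L split into a high and a low run with the same compounds, and BST2 is low in the N-9 run of replicates 4 to 6.

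The other genes of the largest MALP2 differences split between the runs. USP18, which removes ISG15 from proteins and restrains the type I interferon receptor, had 9.02, 10.96 and 12.62 with MALP2 against 5.92, 7.74 and 11.36 in GM. It was higher by 2.81 (SE 0.53, limma adjusted p = 6.24e-05), with 4.52 in the first run and 1.10 in the second. CMPK2, a mitochondrial nucleotide kinase, had 8.96, 11.36 and 13.41 against 5.76, 8.06 and 12.48, and its runs differed from GM by 4.70 and 0.59 (fit over both runs 2.65, SE 0.70, limma adjusted p = 0.00809). MX1 had 10.92, 12.46 and 13.91 against 6.61, 9.40 and 12.96, with 3.92 and 1.29 in the runs (2.61, SE 0.74, limma adjusted p = 0.0147). All 3 overlapped with GM, and their second run lay within the range of the GM runs.

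OAS1, one of the synthetases whose product activates RNase L, had 10.78, 11.94 and 13.14 with MALP2 and 7.80, 8.95 and 12.25 in GM. Its difference was 2.46 (SE 0.50, limma adjusted p = 0.000216), from runs at 3.56 and 1.35. XAF1, a promoter of apoptosis, is dim in GM (2.95, 6.20 and 9.72) and had 6.73, 8.96 and 10.86 with MALP2. It was higher by 2.30 (SE 0.54, limma adjusted p = 0.00209), from runs at 4.17 and 0.44. OASL and OAS3 of the OAS family were also called (1.82 and 1.16), while OAS2 (1.55, limma adjusted p = 0.0674) was not.

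By role, all genes called with MALP2 moved up, but not every branch of the pathway was called. Among the cytosolic RNA sensors, IFIH1 (MDA5) and DDX58 (RIG-I) were higher by 2.20 and 1.84 (limma adjusted p = 2.5e-05 and 3.54e-05), whereas DHX58 and the helicase DDX60 did not pass. Of the IFIT genes, IFIT5 was called (1.21), but IFIT1 (1.52), IFIT2 (1.20) and IFIT3 (1.55) were not, with second-run values of -0.47, -1.37 and -0.37. Of the ISG15 system, USP18 was called, and ISG15 itself, its conjugating enzyme UBE2L6 and its main ligase HERC5 were not. HERC6, the neighbour of HERC5, was called. IRF9, the DNA-binding part of the interferon-activated complex, was higher by 0.96 (SE 0.25, limma adjusted p = 0.00681), with 10.96, 11.35 and 11.65 against 8.96, 10.32 and 11.56 in GM. IRF1 had 8.44, 9.17 and 9.89 against 8.04, 8.89 and 9.52, and its difference of 0.28 (SE 0.20) did not pass (limma adjusted p = 0.515).

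TNF-α raised 14 of the 42 genes and lowered 0, against 0.526% of all probesets called higher and 0.196% called lower. All 42 differences were positive, with a median of 1.49 (0.01 over all probesets). With the runs as a random block 7 calls held (0.201% of all probesets), namely GBP1, IFIH1, SAMD9, IFI44, SAMD9L, DDX58 and EPSTI1. The mean of the 42 genes was 2.24 above GM in replicates 1 to 3 and 0.38 above it in replicates 4 and 5. Limma called 0 of the 42 without replicates 1 to 3 (0.0677% of all probesets called higher) and 24 without replicates 4 and 5 (0.656% of all probesets), and without any single one of replicates 1, 2 or 3 it called 4.

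SAMD9 with TNF-α had 11.99, 12.21, 12.11, 11.92 and 11.90 on replicates 1 to 5, all above the highest GM array, which held for 0.0366% of all probesets. Its difference was 1.94 (SE 0.29, limma adjusted p = 2.29e-06), with 2.02 in the first run and 1.83 in the second, and both runs were above all 18 GM runs (0.540% of all probesets). It was the only one of the 42 for which that held with TNF-α. With 1 value per run, SAMD9 was not called with TNF-α (limma adjusted p = 0.247). GBP1 had 13.37, 13.28, 13.02, 10.72 and 10.99, so its second run lay among the untreated arrays (difference 2.24, SE 0.47, limma adjusted p = 0.00321). IFIH1 had 12.11, 12.23, 12.06, 10.31 and 10.41 (2.10, SE 0.43, limma adjusted p = 0.00218). IFI44 had 12.27, 12.32, 12.23, 10.69 and 10.80 (1.66, SE 0.35, limma adjusted p = 0.00328).

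USP18 had 11.38, 11.61, 11.57, 8.89 and 8.80 with TNF-α, and its difference of 2.40 (SE 0.57, limma adjusted p = 0.0168) lost its call with the runs as a block (adjusted p = 0.0955). XAF1 had 9.63, 9.88, 9.93, 7.35 and 7.96 (2.39, limma adjusted p = 0.0237, 0.182 with the block). IFIT3 had 14.09, 14.21, 14.22, 12.00 and 11.90 (2.30, limma adjusted p = 0.0483, 0.163 with the block). In each of the 3 the first run lay 2 or more log2 units above the second. OAS1 had 12.39, 12.26, 12.32, 10.63 and 10.73 (2.16, limma adjusted p = 0.0255, 0.0823 with the block). IRF7 had 10.92, 11.05, 11.13, 9.95 and 10.05 (1.43, limma adjusted p = 0.0420, 0.175 with the block), IRF9 11.23, 11.07, 11.21, 10.94 and 10.95 (0.73, limma adjusted p = 0.316) and IRF1 9.16, 9.48, 9.51, 9.44 and 9.40 (0.51, limma adjusted p = 0.445).

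Pam3CSK4 raised 8 of the 42 genes and lowered 0, against 1.31% of all probesets called higher and 0.859% called lower. The differences of 34 genes were positive and of 8 negative, with a median of 0.83 (-0.02 over all probesets). With the runs as a random block GBP1 and SAMD9 held (0.419% of all probesets). The mean of the 42 genes was 1.57 above GM in replicates 1 to 3 and 0.08 above it in replicates 4 to 6. Without replicates 1 to 3 SAMD9 was the 1 gene called (0.648% of all probesets called higher), without replicates 4 to 6 there were 12 (0.566%), and without replicate 1, 2 or 3 alone 2, 2 and 3 were.

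SAMD9 had 11.73, 11.80 and 12.01 (lowest, median and highest of 6 arrays) with Pam3CSK4 against 8.40, 10.01 and 11.85 in GM, and its difference was 1.73 (SE 0.27, limma adjusted p = 2.96e-06), with 1.76 and 1.70 in the runs. The lowest Pam3CSK4 array lay below the highest GM array, but both run means were above all GM runs (0.687% of all probesets). With 1 value per run, SAMD9 was not called with Pam3CSK4 (limma adjusted p = 0.43). GBP1 had 11.33, 12.17 and 13.16 (2.20, SE 0.43, limma adjusted p = 0.000580), from runs at 3.02 and 1.39. RSAD2 (viperin, which makes a nucleotide that stops viral RNA synthesis) had 7.36, 9.55 and 11.19 against 3.25, 7.17 and 10.13 in GM. Its difference of 2.38 (SE 0.64, limma adjusted p = 0.0220) came from runs at 4.05 and 0.72 and lost its call with the block (adjusted p = 0.118).

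Both RNA sensors were called with Pam3CSK4, IFIH1 at 9.85, 10.78 and 11.56 (1.42, limma adjusted p = 0.0323, 0.120 with the block) and DDX58 at 10.07, 10.69 and 11.22 (1.37, limma adjusted p = 0.0110, 0.0530 with the block). SAMD9L had 8.73, 9.35 and 10.12 against 7.22, 8.16 and 10.20 in GM (1.13, limma adjusted p = 0.00946, 0.0616 with the block). TRIM21, a ubiquitin ligase that binds antibody inside cells, had 9.76, 10.43 and 11.24 (1.04, limma adjusted p = 0.0214, 0.103 with the block), and IRF9 10.95, 11.22 and 11.45 (0.86, limma adjusted p = 0.0474, 0.158 with the block). IRF7 (0.75, limma adjusted p = 0.338) and IRF1 (-0.01, limma adjusted p = 0.990) did not pass. TNF-α, Pam3CSK4 and MALP2 had 5 called genes of the 42 in common, namely the sensors DDX58 and IFIH1 with GBP1, SAMD9 and SAMD9L, and these comparisons share their GM arrays.

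**Figure D4:**
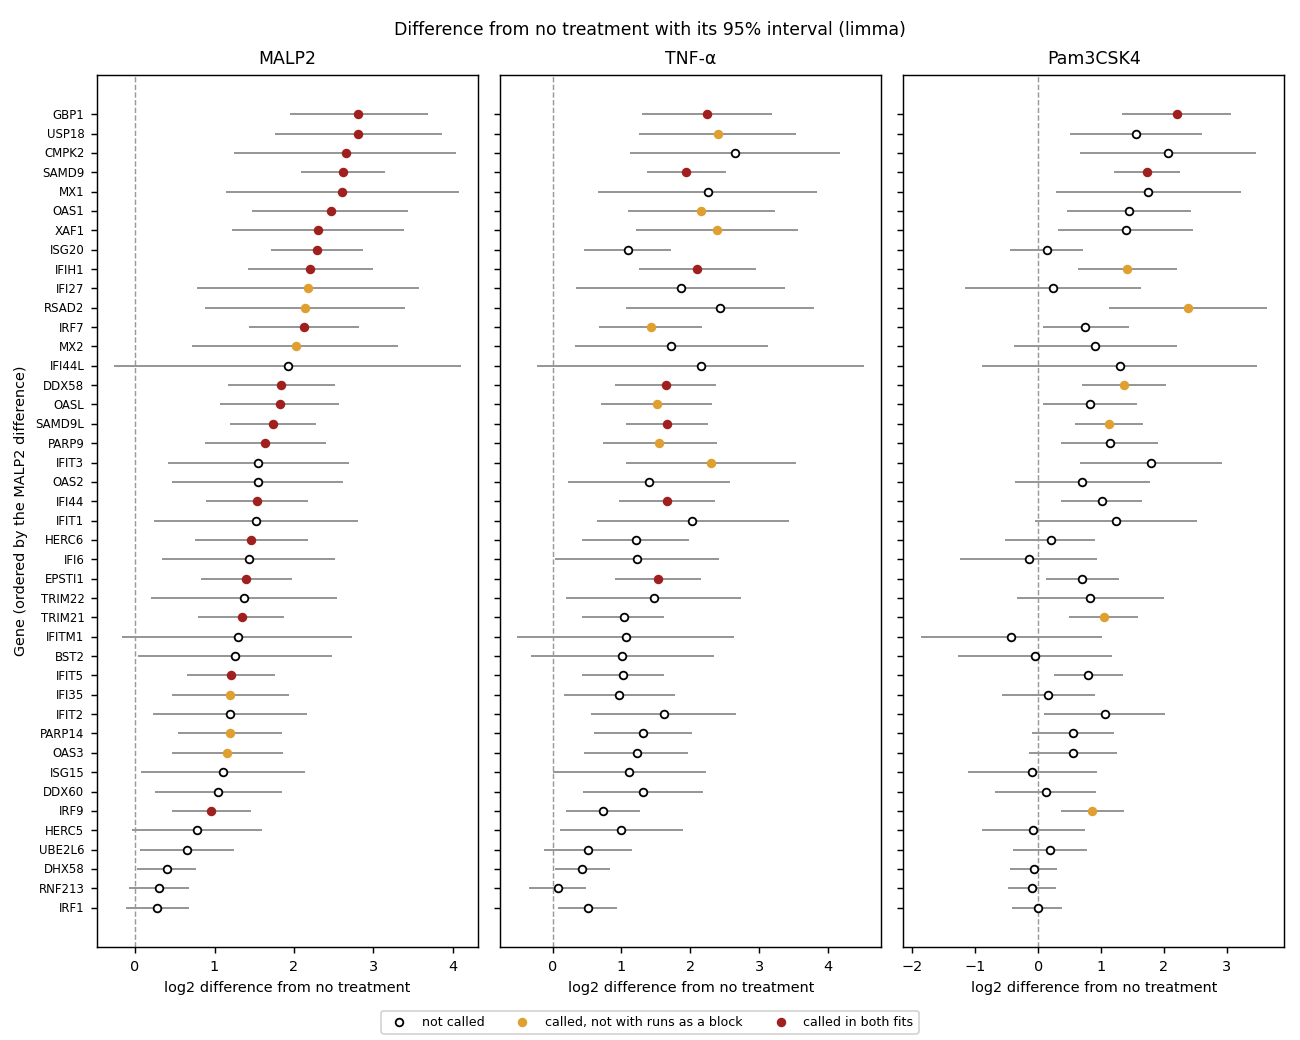
Difference from GM (log2, horizontal axis) of each of the 42 genes (rows, ordered by the MALP2 difference) with MALP2, TNF-α and Pam3CSK4, with bars for 95% intervals of limma. Filled red points are called in both fits, orange points lose the call with runs as a random block and open points are not called, and the counts of red points are 20, 7 and 2.

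The doses of the lipopeptides differed, so their values stand side by side without a test. SAMD9 was 2.62 above GM with MALP2 at 200 ng/ml and 1.73 with Pam3CSK4 at 10 μg/ml. GBP1 was 2.81 and 2.20 above GM, USP18 2.81 and 1.55, and ISG20 2.29 and 0.14. RSAD2 was 2.14 and 2.38 above GM and IRF9 0.96 and 0.86. Between MALP2 and TNF-α limma called 0 of the 42 (0.168% of all probesets higher with MALP2, 0.0806% lower), with 1 at an unadjusted p under 0.05 (7.42% of all probesets). That gene was ISG20, higher with MALP2 by 1.20 (95% interval 0.38 to 2.01, limma adjusted p = 0.341).

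**Figure D5:**
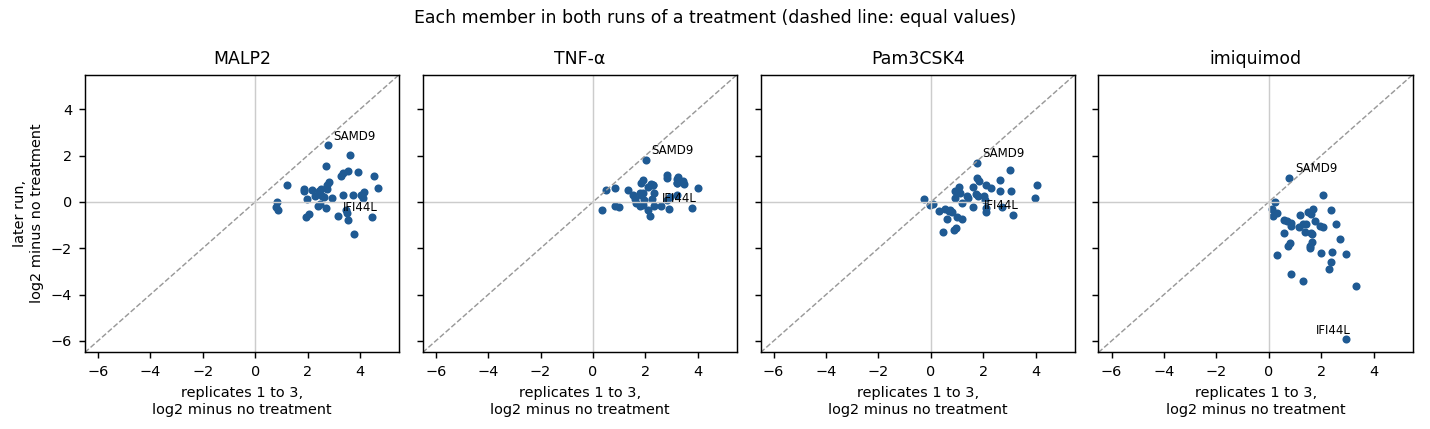
Each of the 42 genes (points) in the first run of a treatment (horizontal axis, log2 minus GM) and in its later run (vertical axis, same scale), for MALP2, TNF-α, Pam3CSK4 and imiquimod, with the dashed line at equal values. Most points lie far below the line in all 4 panels, SAMD9 lies near it, and with imiquimod most points are positive in the first run and negative in the second.

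Imiquimod gave opposite pictures in its runs. In replicates 1 to 3 all 42 genes were above their GM mean (mean of the 42 genes 1.48), and in replicates 4 to 6 2 of them were (mean -1.42). Over both runs the median difference was 0.00 (0.00 over all probesets), with 21 genes positive and 21 negative. IFI44L was 2.94 above GM in the first run and -5.93 from it in the second, IFI27 3.32 and -3.64, and MX1 2.36 and -2.60. The range of GM runs is wide for these genes too, and no gene of the 42 was above all GM runs in both runs of imiquimod, where 2.04% of all probesets were. Of the 42, limma called 10 lower and 0 higher without replicates 1 to 3, where 2.18% of all probesets were called lower and 2.21% higher. It called 16 higher and 0 lower without replicates 4 to 6, where 4.11% of all probesets were called higher and 6.16% lower.

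The genes that were above GM in both runs were SAMD9 and ISG20, and they were the 2 of the 42 that limma called (4.68% of all probesets were called higher and 6.19% lower, and 2.44% higher with the runs as a block). ISG20 had 9.61, 10.57 and 11.58 with imiquimod against 8.52, 9.28 and 11.20 in GM. Its difference was 1.18 (SE 0.29, limma adjusted p = 0.00254, 0.0105 with the runs as a block), from runs at 2.07 and 0.29. SAMD9 had 10.74, 11.03 and 11.23 and a difference of 0.92 (SE 0.27, limma adjusted p = 0.0112, 0.0455 with the block), from runs at 0.79 and 1.05. Both overlapped with GM, and with 1 value per run limma called neither (adjusted p = 0.444 for ISG20 and 0.539 for SAMD9). Neither kept its call without replicates 1 to 3 (adjusted p = 0.819 for ISG20 and 0.0925 for SAMD9), and SAMD9 did not without replicates 4 to 6 (adjusted p = 0.183). IRF7 (0.69, limma adjusted p = 0.232), IRF9 (-0.09, limma adjusted p = 0.888) and IRF1 (-0.21, limma adjusted p = 0.596) did not pass. The 3′ minus 5′ difference of ACTB was 1.45 (SD 0.65, n = 3) in replicates 1 to 3 of imiquimod and 0.46 (SD 0.08, n = 3) in replicates 4 to 6, against 0.43 (SD 0.28, n = 53) in GM, and its part in these values was not tested.

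Set directly against imiquimod, MALP2 was higher for 9 of the 42 genes and lower for 0 (1.07% of all probesets higher, 0.976% lower), of which 5 held with the runs as a block (0.287% of all probesets). These were SAMD9L (1.82, 95% interval 1.09 to 2.55, limma adjusted p = 0.000773), DDX58 (2.23), IFI44 (2.12), SAMD9 (1.70) and PARP9 (2.13). TNF-α was higher than imiquimod for 8 genes and lower for 0 (1.19% of all probesets higher, 1.12% lower), with IFI44, SAMD9L, IFIT3 and DDX58 holding with the block (0.355% of all probesets). IFIT3 had the widest of these gaps, at 3.43 (95% interval 1.84 to 5.03, limma adjusted p = 0.00539). Adjusted over all direct comparisons together, limma called 10 and 8 of the 42.

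By the brightest probeset of each gene, N-9 lowered 7 of the 42 genes and raised 0, but 10.1% of all probesets were called lower with it and 7.35% higher, so the share of 7 in 42 is to be read against that. The median difference was -0.50 (-0.01 over all probesets), with 35 genes negative and 7 positive. The 3 runs gave means of the 42 genes of -0.46, -0.55 and -0.53, close to each other and within the range of the GM runs. BST2, DDX58 and IFIT5 held with the runs as a block (5.37% of all probesets). MX1 had an SD of 0.13 over the 9 N-9 arrays and of 1.96 over the GM arrays. Its N-9 arrays had 8.42, 8.74 and 8.86 (lowest, median and highest) against 6.61, 9.40 and 12.96 in GM. This was not so for every gene, as IRF1 and BST2 had wider SDs with N-9 (0.98 and 2.90) than in GM (0.34 and 1.14). The N-9 arrays also came from 3 runs and those of GM from 18.

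BST2 had the largest difference with N-9, at -1.73 (SE 0.51, limma adjusted p = 0.0101), and it rested on 1 run. Its signals with N-9 were 4.19, 10.83 and 11.37 against 8.53, 11.07 and 12.57 in GM. The run means were 10.81 in replicates 1 to 3, 5.42 in replicates 4 to 6 and 11.36 in replicates 7 to 9. Without replicates 4 to 6 the difference turned to 0.16 (adjusted p = 0.875). BST2 was also low in HEC replicates 4 to 6 and CMC replicates 1 to 3, by 2.70 and 2.67 below the GM mean. Its lowest untreated runs, GM replicates 4 to 6 and 7 to 9, were at -1.94 and -1.78 from that mean. Against GM replicates 1 to 9 alone its N-9 difference was -0.37 (adjusted p = 0.825).

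DDX58 had 7.85, 8.26 and 9.06 with N-9 against 8.01, 9.24 and 11.60 in GM. Its difference of -1.01 (SE 0.28, limma adjusted p = 0.00584, 0.0218 with the block) came from runs at -1.13, -1.15 and -0.74, and the call held without any one of the runs (adjusted p = 0.0486, 0.0469 and 0.00952). With 1 value per run it was lost (limma adjusted p = 0.359). IFIT5 had 9.36, 10.19 and 11.01 against 9.96, 10.95 and 12.50, with a difference of -0.74 (SE 0.23, limma adjusted p = 0.0158) from runs at -1.45, -0.70 and -0.07. USP18 had 5.11, 6.64 and 7.92 (-1.32, SE 0.44, limma adjusted p = 0.0252) and GBP1 7.18, 9.36 and 9.83 (-1.14, SE 0.36, limma adjusted p = 0.0178), with runs of GBP1 at -2.47, -0.62 and -0.33. IFI44 had 8.87, 9.24 and 9.62 (-0.80, limma adjusted p = 0.0279) and PARP14, a mono-ADP-ribosyltransferase, 6.45, 7.63 and 8.23 (-0.78, limma adjusted p = 0.0370). Without replicates 1 to 3, BST2 and DDX58 were the 2 of these 7 genes that kept their calls, and IFIT5 (adjusted p = 0.409), USP18 (0.193), GBP1 (0.531), PARP14 (0.0817) and IFI44 (0.0980) lost theirs. USP18 (0.188) and PARP14 (0.122) also lost theirs without replicates 4 to 6, as did IFI44 (0.143) and PARP14 (0.0929) without replicates 7 to 9. The call of DDX58 rested on the brightest of its probesets, and of its 2 others 1 was called (-0.82, limma adjusted p = 0.0229) and 1 was not (-0.27, limma adjusted p = 0.690). IRF7 (0.15), IRF9 (-0.22) and IRF1 (0.03) did not pass, at limma adjusted p = 0.790, 0.548 and 0.937.

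Between MALP2 and N-9, 30 of the 42 genes were higher with MALP2 and 0 lower (6.98% of all probesets higher, 6.12% lower), and 28 held with the runs as a block (3.23% of all probesets). For 22 genes each MALP2 array was above each N-9 array, against 2.26% of all probesets. USP18 differed most, at 10.86 against 6.73 (difference 4.13, 95% interval 2.85 to 5.41, limma adjusted p = 7.32e-07), followed by GBP1 (3.95, 2.90 to 5.01), CMPK2 (3.80, 2.09 to 5.51) and MX1 (3.70). SAMD9 differed by 3.12 (2.48 to 3.77).

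With the gels limma called 0 of the 42 genes in either direction, and the intervals leave room for differences of 1 log2 unit or more in many of them. With HEC 39 differences were positive and 3 negative (median 0.46, 0.00 over all probesets), and 9 genes were at an unadjusted p under 0.05, as were 15.4% of all probesets. All probesets called higher with HEC made up 0.328%, and those called lower 0.465%. OAS1 had 10.55 on average with HEC and 9.51 in GM (difference 1.04, 95% interval 0.22 to 1.87, limma adjusted p = 0.199). IFITM1, a membrane protein that hinders virus entry, had 12.43 and 10.93 (1.50, 0.29 to 2.71, limma adjusted p = 0.208). The means of the 42 genes in the HEC runs were 0.10, 0.45 and 1.02, all within the range of the GM runs. The methods' analysis of variance with a 2-fold limit counted 6 genes higher (0.483% of all probesets). It tests all groups together, so a gene can pass it through the other compounds, and the 6 are not calls of HEC against GM.

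With CMC 6 differences were positive and 35 negative (median -0.19, 0.01 over all probesets), and 0 genes were at an unadjusted p under 0.05 (7.13% of all probesets were, while 0.00183% were called lower and 0% higher). IFI27 had 8.27 on average with CMC and 9.31 in GM (difference -1.03, 95% interval -2.20 to 0.14, limma adjusted p = 0.721). The means in the CMC runs were 0.24, -0.16 and -0.80. HEC and CMC, cellulose ethers that differ in their side groups, shared their dose and time of exposure, and they were the 1 pair of related compounds compared. Between them limma called 0 of the 42 (0% of all probesets in either direction), with 12 at an unadjusted p under 0.05 (7.11% of all probesets) and a median of 0.61 higher with HEC. IFI44L had the widest gap, at 9.61 with HEC and 6.72 with CMC (2.89, 95% interval 0.50 to 5.28, limma adjusted p = 0.624). The other 11 included IFI6 (1.71, 0.52 to 2.90, limma adjusted p = 0.540) and IRF7 (1.01, 0.26 to 1.77, limma adjusted p = 0.557). These intervals do not show that the gels act alike on these genes.

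Of the 42 genes 9 were called with MALP2 alone, namely CMPK2, HERC6, IFI27, IFI35, IFIT5 (lower with N-9), MX1, MX2, OAS3 and PARP14 (lower with N-9), if calls in the same direction are counted. Between MALP2 and TNF-α limma called 0 of the 42. The group means with MALP2 and TNF-α were 11.24 and 11.24 for CMPK2, 11.05 and 10.8 for HERC6 and 11.48 and 11.17 for IFI27. They were 10.91 and 10.68 for IFI35, 12.2 and 12.01 for IFIT5 and 12.42 and 12.07 for MX1. For MX2 they were 11.31 and 11.02, for OAS3 11.88 and 11.94 and for PARP14 9.64 and 9.75. By its brightest probeset, each of the following 14 genes was called with no compound: DDX60, DHX58, HERC5, IFI44L, IFI6, IFIT1, IFIT2, IFITM1, IRF1, ISG15, OAS2, RNF213, TRIM22 and UBE2L6. IFI44L, IFIT1 and IFITM1 were among the widest in GM, with ranges between runs of 8.99, 5.16 and 5.29, and IRF1, DHX58 and RNF213 among the narrowest, at 1.18, 1.19 and 1.38. Other probesets were present for 22 of the 42 genes (35 probesets), and all 35 had the sign of the brightest one with MALP2, 30 with TNF-α, 29 with Pam3CSK4, 25 with imiquimod and 26 with N-9. Where the brightest probeset was called, limma also called 18 of 23 others with MALP2, 12 of 18 with TNF-α, 7 of 11 with Pam3CSK4, 2 of 2 with imiquimod and 2 of 8 with N-9. Of the 14 genes above, OAS2, IFIT2, IRF1 and RNF213 had other probesets, and each had at least 1 that was called. The one of OAS2 was higher with MALP2 (1.85, limma adjusted p = 2.7e-05), TNF-α (1.52) and Pam3CSK4 (1.29) and lower with N-9 (-0.89), that of IFIT2 was higher with MALP2 (1.14) and that of IRF1 lower with N-9 (-1.10). Of the 7 others of RNF213, 1 was higher with MALP2 (1.56) and lower with imiquimod (-1.77) and N-9 (-1.54), and another was lower with N-9 (-1.09). Over the 35 other probesets N-9 had 8 called lower and 1 higher, the latter for IFIH1 (0.95, limma adjusted p = 0.00168), whose brightest probeset did not pass (0.08).

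The rest of the interferon pathway was followed on a list of 32 ligands, receptors, kinases, factors, inhibitors, sensors and adaptors, 30 of them measured. MALP2 raised 9 and lowered 0, imiquimod raised 5 and lowered 1, N-9 raised 5 and lowered 5, TNF-α raised 4, Pam3CSK4 raised 2, and 0 were called with HEC and CMC. The shares of all probesets called higher were 3.28% with MALP2, 4.68% with imiquimod, 7.35% with N-9, 0.526% with TNF-α and 1.31% with Pam3CSK4, and those called lower were 6.19% with imiquimod and 10.1% with N-9. Among ligands, IFNK, the interferon of keratinocytes, had a GM mean of 5.48 (SD 1.77, n = 53) and differed by 4.45 with MALP2 (limma adjusted p = 1.57e-07), 3.35 with imiquimod (limma adjusted p = 5.86e-05) and -2.18 with N-9 (limma adjusted p = 0.00154). Its run means were 9.64 and 10.23 with MALP2 and 9.46 and 8.20 with imiquimod, so it was above GM also in the imiquimod run in which the interferon-stimulated genes were low. With N-9 the run means of IFNK were 1.93, 2.38 and 5.58, and those of GM ranged from 2.03 (replicates 4 to 6) to 7.51 (replicates 53 to 54). IFNB1 was dim (GM mean 2.91) and its rise of 1.11 with MALP2 lost its call with the runs as a block (adjusted p = 0.204). With N-9, IFNB1 (0.67, limma adjusted p = 0.0277) and IFNL1 (0.64, limma adjusted p = 0.00833) were called higher, as was IFNL2 with imiquimod (0.81, limma adjusted p = 0.00144). These calls were also lost with the block (adjusted p = 0.332, 0.182 and 0.0707). Of the receptors, IFNLR1 (0.80) rose with MALP2, IFNAR2 with MALP2 (0.71) and TNF-α (0.88, adjusted p = 0.0786 with the block), and IFNGR1, of the IFN-γ receptor, with Pam3CSK4 (0.81, limma adjusted p = 2.13e-10) and TNF-α (0.39, adjusted p = 0.0872 with the block), while IFNAR1 fell by 0.99 with N-9. SOCS1, which inhibits the receptor kinases, rose with TNF-α (1.10), MALP2 (1.59), imiquimod (1.62) and N-9 (1.39). TNFAIP3, an NFκB target listed for reference, rose by 2.93, 2.97, 2.27 and 1.64 with the same compounds, and it was also called with Pam3CSK4. TLR7, the receptor of imiquimod, had a GM mean of 6.03 and was not called with any compound.

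The defining markers of epithelium were high in all groups, with a summed log2 signal of 6 markers between 16.61 and 17.02 on every array. Of these markers KRT19 was called lower with imiquimod (-0.60, limma adjusted p = 0.000801) and N-9 (-0.40, limma adjusted p = 0.00739), and DSP higher with imiquimod (0.31, limma adjusted p = 0.0421, 0.125 with the block). Those of plasmacytoid dendritic cells, the main producers of type I interferon in blood, were between 5.31 and 8.11 for 3 markers summed, and those of leukocytes between 7.70 and 10.15 for 4. Of the latter, CD14 had a GM mean of 7.04 and a run mean of 9.60 in GM replicates 37 to 39. The 6 fibroblast markers summed to between 9.40 and 12.38, with COL1A1 at a GM mean of 10.83. COL1A1 correlated with the mean of the 42 genes at r = 0.53 over GM run means, and its part was not tested. Endothelial and melanocyte markers summed to at most 9.01 and 8.78. With TNF-α, Pam3CSK4, MALP2, HEC and CMC 0 of the markers of leukocytes or of plasmacytoid dendritic cells were called, which also held with N-9, and with imiquimod 1 leukocyte marker (CD14) was lower (limma adjusted p = 0.0252, 0.159 with the block). Their part in the results with imiquimod and N-9 was not tested.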

How the data were processed

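Values were the deposited log2 signals of single Affymetrix arrays, which the authors made before deposit (MAS5 in GCOS 1.3 per the submitters' processing notes, whereas the methods describe RMA in GeneSpring). They were quantile normalized over 103 of the 105 arrays, leaving out GM replicate 52 and TNF-α replicate 6. After 62 control probesets were dropped, 54613 were tested with limma 3.58.1 in R 4.3.3 in 1 fit over all groups, with Benjamini-Hochberg adjustment per comparison, no filter and no fold limit. Of all probesets 41097 have 1 annotated gene, 1801 have several and 11777 are not listed. Alternatives were runs as a random block (consensus correlation 0.438), 1 value per run, leaving out arrays or runs, a filter, other controls and the methods' analysis of variance.

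Genes given by array are the 8 largest differences among those called with MALP2, TNF-α or Pam3CSK4, each gene called with imiquimod, N-9, HEC or CMC, and IRF1, IRF7 and IRF9. Others named are from the lists of interferon pathway genes and markers, or were chosen after their values were seen. Members and lists were chosen with earlier results of these data known. The number of arrays, and of runs (2 or 3 of each compound), limits the precision. The fit was tested on simulated data in which arrays were independent and had no runs, so that test cannot show how the fit does with runs.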

Additional observations from a re-analysis of the deposited data

Results flagged for a closer look

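In 74 groups of 4 to 10 arrays, 2 values stood far from the rest of their group, at a gap that chance alone passes in about 1 of 20 groups. SAMD9 in Pam3CSK4 replicate 1 had a log2 signal of 12.01, where the nearest of the other 5 arrays had 11.81 and the lowest 11.73. PARP14 in N-9 replicate 8 had 6.45, where the nearest of the other arrays had 7.35 and the highest 8.23.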

How the results depend on the processing

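Counts are of the 42 genes, higher than GM unless stated. A random block of runs left 7 for TNF-α, 2 for Pam3CSK4, 3 lower for N-9, 5 for MALP2 over imiquimod and 4 for TNF-α over imiquimod. With 1 value per run MALP2 kept 2 (0.306% of all probesets), and MALP2 over N-9 had 2 (0.390%). TNF-α (0.0348%), Pam3CSK4 (0.0439%), imiquimod (0.546%), N-9 (lower, 1.53%), MALP2 over imiquimod (0.00732%) and TNF-α over imiquimod (0.00916%) had 0. Same-numbered arrays of GM and a compound deviated together in part (r over 0.1 for 6 of 9 numbers with N-9 and with HEC, the other 3 being negative, and for 0 with the other compounds), so the numbers were not taken to pair the groups. With them as a fixed replicate block, counts (and shares of all probesets) were 3 lower for Pam3CSK4 (10.1%), 6 higher and 4 lower for imiquimod (12.8% and 13.6%), 18 lower for N-9 (7.43%), 6 lower for CMC (1.50%), 16 for MALP2 over imiquimod (1.31%), 13 for TNF-α over imiquimod (1.66%) and 2 for HEC over CMC (0.0732%). Against GM replicates 1 to 9 alone they were 1 lower for Pam3CSK4 (6.65%), 17 for MALP2 (7.85%), 15 lower for N-9 (6.79%) and 1 lower for CMC (0.584%). Of the higher calls of the main fit, the replicate block kept 10 of 14 with TNF-α, 6 of 8 with Pam3CSK4 and 19 of 26 with MALP2. The shares of all probesets called higher with it were 6.63%, 10.1% and 11.1%. Against GM replicates 1 to 9, 9, 6 and 16 of these calls held (3.52%, 6.45% and 7.85% of all probesets called higher). With all arrays the counts (and shares of all probesets) were 4 for Pam3CSK4 (0.557%), 1 for imiquimod (2.63%), 4 lower for N-9 (5.42%) and 3 for MALP2 over imiquimod (0.315%). Among probesets with a mean of at least 7, MALP2 over imiquimod had 14 (1.36% of all 54613 probesets). The methods' analysis of variance over all groups, with a 2-fold limit, gave 32 for TNF-α (0.767% of all probesets) and 17 for Pam3CSK4 (1.06%). It gave 2 lower for imiquimod (1.86%), 6 for HEC (0.483%) and 1 lower for CMC (0.229%). The adjusted p with a 2-fold limit gave 1 for imiquimod (1.74%) and 4 lower for N-9 (2.09%).

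Leaving out runs was chosen after seeing the data. With replicates 1 to 3 left out, TNF-α had 0, Pam3CSK4 1 and MALP2 4, with 0 higher and 10 lower for imiquimod and 3 lower for N-9 (8.51% of all probesets). Without the later run there were 24 for TNF-α, 12 for Pam3CSK4 and 16 for imiquimod. Single arrays left out gave TNF-α 4 to 20 (0.214% to 0.505% of all probesets), Pam3CSK4 2 to 7 (0.818% to 0.927%) and MALP2 18 to 29 (2.50% to 2.84%). They gave 2 to 2 for imiquimod (3.52% to 4.05%) and 3 to 7 lower for N-9 (8.87% to 10.3%), counts that are to be read against these shares. Without replicates 1 to 3 the MALP2 differences of IFI35 and PARP14 turned to -0.28 and -0.08, and without replicates 4 to 6 the N-9 difference of BST2 turned to 0.16. The causes were not tested. Dim genes (DHX58, XAF1, RSAD2) are measured with little signal over background.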
